A study of Mus musculus with 2 samples.

Results

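The 2′-5′-oligoadenylate synthetase family of the mouse was measured here through 6 genes, Oas1a, Oas1g, Oas2, Oas3, Oasl1 and Oasl2, chosen by symbol out of 32285 gene entries. All 6 were present in both libraries. They were read in cells of orthotopic pancreatic tumours grown from the K210 line, which descends from Trp53 fl/fl tumours driven by Pdx1-Cre. The hosts were male C57BL/6J mice, 5 to 6 weeks old when obtained. One library came from mice given PBS, the vehicle, and the other from mice given cmExoaCD11b, exosomes loaded with IL-12 mRNA and 2′3′-cGAMP (5 µg cGAMP per mouse) and coated with an antibody to CD11b, a surface protein of myeloid cells. Tumours were taken 48 h after treatment, and each library pooled 3 mice, so that there was 1 library per condition and no replicate. Every interval given is a 95% interval that covers counting error alone, and no p-value could be computed.

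OAS enzymes are sensors of double-stranded RNA, a sign of viral infection. On binding it they join ATP into 2′-5′-linked oligoadenylates (2-5A), a second messenger that limits viral growth. Transcription of the family is switched on by interferons, which are themselves made after sensors such as the cGAMP receptor STING are triggered, and the genes are used widely as a readout of interferon exposure. Oas1a, Oas1g, Oas2 and Oas3 encode synthetases with 1 or more copies of the OAS unit. Oasl1 and Oasl2 carry in addition ubiquitin-like domains, Oasl1 lacks synthetase activity and is known to hold back translation of Irf7 mRNA, and mouse Oasl2 retains activity.

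All 6 genes lie on chromosome 5 in GENCODE vM21 (GRCm38), in a pair of neighbourhoods. Oasl2 (chr5:114896936-114912234) and Oasl1 (chr5:114923240-114937915) stand side by side on the plus strand. Oas2 (chr5:120730333-120749853), Oas3 (chr5:120753098-120777661), Oas1g (chr5:120876142-120887613) and Oas1a (chr5:120896256-120907521) lie on the minus strand in a cluster that also holds the other Oas1 paralogs. Because the genes differed together between the libraries, the bases just upstream of each start are shown. These are the 100 bases before the RefSeq start on the gene's own strand (GRCm38.p6), in lower case, with each match to GAAANNGAAA, the core of the interferon-stimulated response element, in capitals. RefSeq windows were at hand for 5 of the 6 members, without Oas2. The windows are chr5:120907526-120907625 (minus) for Oas1a, chr5:120887614-120887713 (minus) for Oas1g, chr5:120777660-120777759 (minus) for Oas3, chr5:114923140-114923239 (plus) for Oasl1 and chr5:114896834-114896933 (plus) for Oasl2.
Oas1a: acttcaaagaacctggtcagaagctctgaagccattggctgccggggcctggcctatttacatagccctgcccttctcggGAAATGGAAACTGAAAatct
Oas1g: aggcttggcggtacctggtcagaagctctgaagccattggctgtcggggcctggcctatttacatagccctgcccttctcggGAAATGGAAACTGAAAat
Oas3: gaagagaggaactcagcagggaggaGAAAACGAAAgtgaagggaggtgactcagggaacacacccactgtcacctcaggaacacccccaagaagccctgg
Oasl1: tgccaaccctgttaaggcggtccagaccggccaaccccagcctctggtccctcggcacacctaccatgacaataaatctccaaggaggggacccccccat
Oasl2: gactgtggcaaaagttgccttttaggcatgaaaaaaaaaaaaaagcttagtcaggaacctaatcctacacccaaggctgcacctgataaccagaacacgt

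Oas1a and Oas1g are near copies here. Their windows were identical at 92 of 102 aligned positions, against 41.1% to 51.7% identity for every other pair. Both hold overlapping matches to the core that together read as 3 GAAA repeats, from base -20 to -5 before the start in Oas1a and from -18 to -3 in Oas1g. Oas3 holds 1 match, from -75 to -66. Searched on both strands from 250 bases before to 50 after the start, GAAANNGAAA occurred in 3.44% of the 32851 RefSeq windows, and the longer GAAANNGAAANNGAAA in 0.116%, every match of the latter counting also as a match of the former. The windows of Oasl1 and Oasl2 held neither, which says only that these letters are not in these bases. TTCNNNGAA, the gamma-activated site, occurred in 8.30% of windows and, among the 5 members with a window, in Oas1a alone.

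Cells were called anew from unfiltered barcodes, giving 6832 cells in the PBS library and 7069 in the cmExoaCD11b library with medians of 3457 and 4114 UMIs, where a UMI marks 1 captured transcript. The libraries had 15 kept barcodes in common. A cell was put into the class with the largest share of its markers above the level that free RNA would give, with at least 2 such markers. Subsets split by further genes used the same level for each gene. A cell counted as without a gene can therefore hold some of its UMIs. Neutrophils made up most cells (4274 and 4163), followed by T cells (429 and 934), macrophages (332 and 103), monocytes (319 and 352), B cells (295 and 300), NK cells (35 and 117), dendritic cells (DC, 47 and 115), plasma cells (43 and 140) and epithelial cells (65 and 43), while 993 and 802 cells stayed without a class. Levels are given as CPM, the UMIs of a gene per 1000000 UMIs of a class. Each transcript was counted at its 3′ end, so CPM was not divided by gene length. In the last 500 bases of the longest coding transcript, 42.3% of the 90-base words of Oas1a and 13.9% of those of Oas1g recur in the other gene, so the split between the pair is uncertain. The other 4 members shared no such word with another gene.

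Over all cells the summed family level was 159 CPM (7920 UMIs) in the PBS library and 378 CPM (23589 UMIs) in the cmExoaCD11b library, a ratio of 2.39 (2.33 to 2.45). Oas1g, an OAS1 paralog, had the largest ratio, with 2.32 and 9.27 CPM (3.99, 3.27 to 4.92). Oas2 stood at 11.9 and 46.7 CPM (3.92, 3.59 to 4.29). Oas3, the longest enzyme of the family, stood at 12.8 and 47.8 CPM (3.75, 3.44 to 4.09). Oas1a stood at 12.6 and 42.0 CPM (3.32, 3.04 to 3.63). Both OAS-like genes were the most abundant and had the smallest ratios. Oasl1 stood at 49.1 and 112 CPM (2.28, 2.18 to 2.39) and Oasl2 at 69.8 and 120.5 CPM (1.73, 1.66 to 1.80). Thus 5 of 6 members were at least 2-fold higher, beside 2.87% of the 14180 genes with at least 50 UMIs. The classes had different weights in the libraries. With each class held at its PBS share of UMIs, the family ratio over all cells was 2.63.

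The PBS library already showed which cells carried the family. DC had the highest summed level (317 CPM, 274 to 364), above macrophages (183, 171 to 195), and their intervals did not overlap. Of the 198 family UMIs of these DC, 46 came from 1 of the 47 cells. The intervals treat UMIs as independent and do not allow for such clustering in cells. Neutrophils (163, 159 to 168) and monocytes (161, 149 to 173) could not be separated from each other. Epithelial (109) and T cells (83.1) came next with overlapping intervals, then B cells (51.3), plasma cells (19.7) and NK cells (19.3, from 3 UMIs). In the cmExoaCD11b library macrophages (732 CPM, 683 to 785) and monocytes (667, 645 to 689) led with overlapping intervals. DC (554), neutrophils (380.0), NK cells (257), T cells (237) and epithelial cells (176) followed, with B (114) and plasma cells (39.7) lowest. In that library 128 of the 807 family UMIs of macrophages came from a single cell. Droplets without a cell held 143 and 393 CPM of the family. The 20 T, B and plasma cell markers stood in neutrophils at 2.85% and 5.21% of their level in those droplets. If 7% of a cell's UMIs were such free RNA, it would contribute 10.0 CPM in the PBS library and 27.5 CPM in the other, which is not far from the plasma cell values but well below those of every myeloid class.

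**Figure D1:**
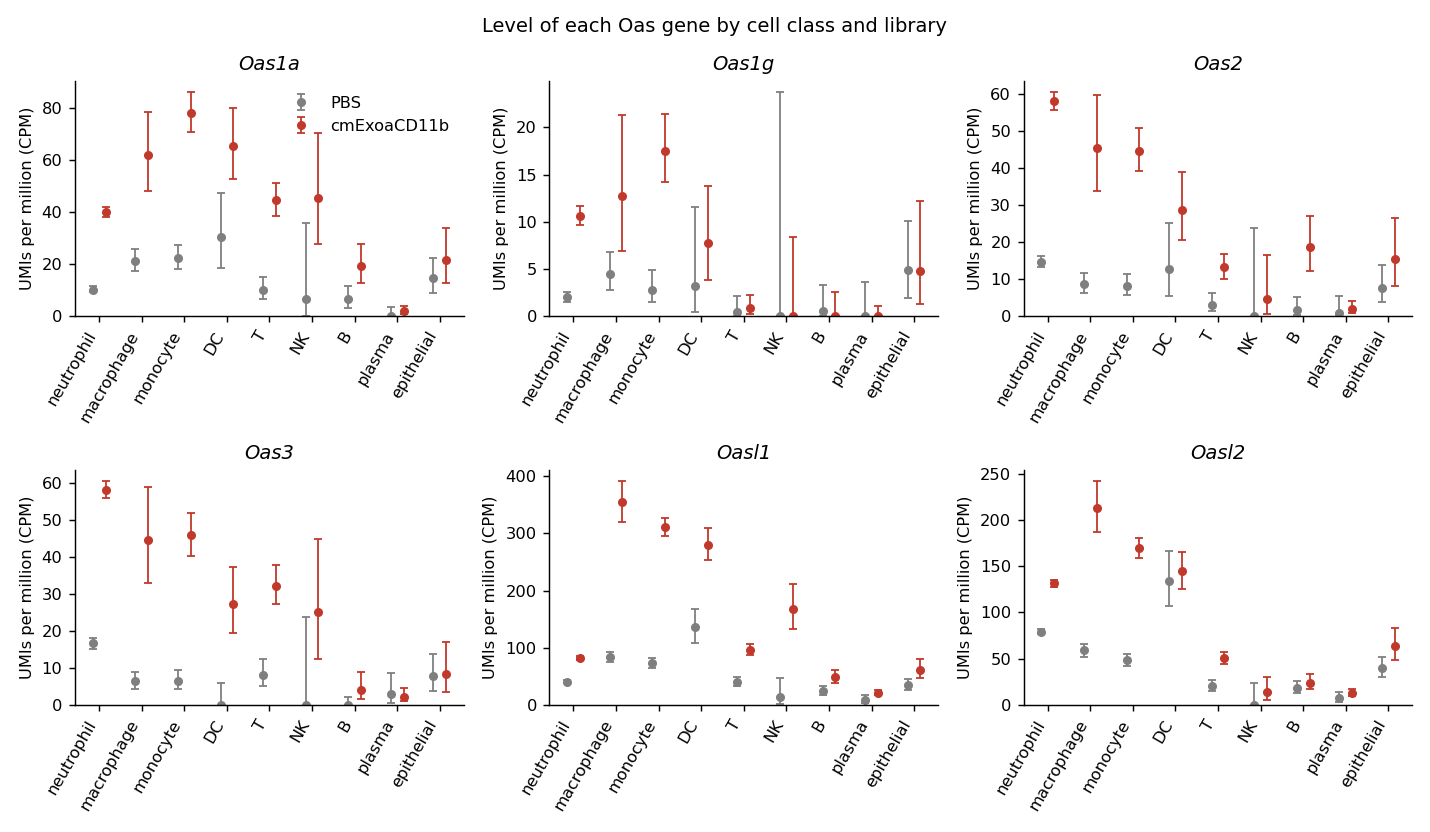
CPM of each gene (vertical axes, a scale per panel) in 9 cell classes, PBS library in grey and cmExoaCD11b library in red, with exact 95% Poisson intervals for counting error. The red points lie above the grey ones for all 6 genes in neutrophils, macrophages and monocytes, whereas Oasl2 in DC stands at 134 and 145 CPM with overlapping intervals.

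Among the classes with at least 100 cells in both libraries, macrophages and monocytes had the largest family ratios with the main gates. B cells broke this order in some alternatives. With classes taken from clusters of the cells the ratio was 5.19 in B cells, 4.33 in monocytes and 2.81 in macrophages. Without cells holding 2 or more neutrophil markers it was also higher in B cells than in macrophages. In monocytes, which are recruited from blood and carry CD11b, the family went from 161 CPM in PBS to 667 CPM in cmExoaCD11b (4.14, 3.82 to 4.50). All 6 members were at least 2-fold higher, beside 4.16% of 9500 genes, and their median log2 ratio was 2.27 against 0.12 over those genes. Oas3 went from 28 to 248 UMIs, or 6.55 and 45.8 CPM (6.99, 4.72 to 10.7). Oas1g went from 2.81 to 17.5 CPM (6.25, 3.42 to 12.5). Oas2 went from 8.19 to 44.7 CPM (5.46, 3.82 to 8.02). In monocytes Oas3, Oas1g and Oas2, which had the lowest PBS levels, thus had the largest ratios. The PBS level is the denominator of the ratio, so the 2 are not independent. In macrophages Oas1g had the lowest PBS level (4.50 CPM) and the smallest ratio (2.83). Oasl1 gave the most UMIs, 312 and 1683, at 73.0 and 311 CPM (4.26, 3.77 to 4.82). Oas1a stood at 22.2 and 78.1 CPM (3.51, 2.81 to 4.44), and Oasl2 at 48.2 and 169.5 CPM (3.52, 3.02 to 4.11).

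In macrophages, phagocytes of the tumour, the family stood at 183 CPM in PBS and 732 CPM in cmExoaCD11b (4.0, 3.64 to 4.41). Here 6 of 6 members were at least 2-fold higher, beside 4.4% of 8440 genes. Oas3 had 6.34 and 44.5 CPM (7.02, 4.39 to 11.4), Oas2 8.58 and 45.4 CPM (5.29, 3.44 to 8.17), Oasl1 83.4 and 355 CPM (4.26, 3.69 to 4.90). Oasl2 had 58.9 and 213 CPM (3.62, 3.04 to 4.32). Oas1a had 21.3 and 61.7 CPM (2.90, 2.11 to 3.98). Oas1g rested on 22 and 14 UMIs (2.83, 1.34 to 5.78), under the 50 UMIs asked of the background genes. Arg1 encodes arginase 1, an enzyme of alternatively activated macrophages. Cells with Arg1 above the free RNA level stood at 173 and 718 CPM (4.14, 3.65 to 4.70). Those not above it stood at 210 and 748 CPM (3.57, 3.05 to 4.18), so that the intervals of the ratios overlapped. In the cmExoaCD11b library these groups held 410 and 397 family UMIs, and 1 cell in 1 of them held 128. The intervals do not allow for that cell. Neutrophil markers made up 18771 and 9005 CPM of the macrophages and 18088 and 22355 CPM of the monocytes, with 12 of 12 markers detected in each. Without cells holding 2 or more of them the family ratio was 3.90 in macrophages and 4.65 in monocytes. Macrophage markers stood at 24166 and 12486 CPM in macrophages and at 2225 and 632 CPM in monocytes. The gated cells thus differed in these markers between the libraries, and the part of this in the ratios was not tested.

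Neutrophils gave most of the family's UMIs, 4953 in PBS and 15607 in cmExoaCD11b. The summed level was 163 and 380.0 CPM (2.33, 2.25 to 2.40), a smaller ratio than in macrophages or monocytes with no overlap of the intervals. This order did not hold with cells called by ranked UMIs and without the test against empty droplets, where the ratio was 4.17 in neutrophils, 3.89 in macrophages and 4.24 in monocytes. Here 5 of 6 members were at least 2-fold higher, beside 2.88% of 11640 genes. Oas1g had 2.01 and 10.6 CPM (5.29, 4.04 to 7.03). Oas2 had 14.7 and 58.1 CPM (3.94, 3.56 to 4.37), and Oas1a 10.2 and 39.9 CPM (3.90, 3.45 to 4.42). Oas3 had 16.6 and 58.2 CPM (3.50, 3.18 to 3.86). In both libraries the neutrophil was the class with the highest CPM of Oas2 and Oas3, although for Oas2 its interval overlapped the next class. The OAS-like genes differed less. Oasl1 had 40.4 and 81.8 CPM (2.03, 1.90 to 2.17) and Oasl2 79.4 and 131 CPM (1.66, 1.58 to 1.74). Both ratios lay below the intervals of Oas1a, Oas1g, Oas2 and Oas3.

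**Figure D2:**
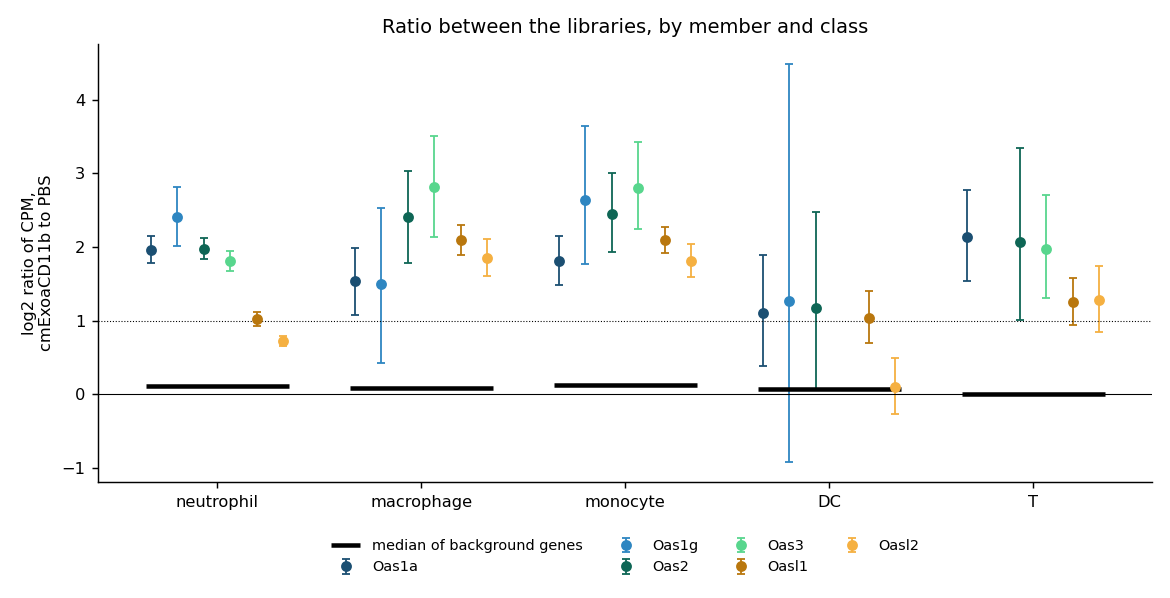
Log2 ratio of CPM between the cmExoaCD11b and PBS libraries (vertical axis) for each gene in 5 classes, with exact 95% intervals; black bars mark the median of all genes with at least 50 UMIs, the dotted line a 2-fold ratio. In neutrophils Oas1a, Oas1g, Oas2 and Oas3 stand near 2 and Oasl1 and Oasl2 near 1; Oas3 in DC (0 UMIs in PBS) and Oas1g in T cells (5 UMIs) are not drawn.

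The neutrophil ratio of Oasl2 was lower than in each of 3 subsets of the same cells split by granule genes. Neutrophils were split by UMIs of Ltf, Camp and Ngp, granule genes that are transcribed in precursors and shut off in mature cells. A gene counted in a cell only above the free RNA level, so cells with none can hold some of these UMIs. Cells with 2 or more of these genes held 45.7 and 245 CPM of the family (5.36, 4.99 to 5.76). Cells with 1 of them held 179 and 580.0 CPM (3.24, 2.82 to 3.73). Cells with none held 378 and 899.9 CPM (2.38, 2.29 to 2.47). So the family CPM was lowest, and differed most between the libraries, in the precursor-like cells. These had a far larger weight after treatment, since they were 24.9% of neutrophils and 61.8% of their UMIs in PBS but 42.8% and 77.6% in cmExoaCD11b. Their median depth was 14861 and 14217 UMIs, beside 3040 and 2775 UMIs in cells with none of the 3 genes, and a deeper cell is likelier to show a UMI of a granule gene.

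For Oasl2 the subset ratios were 5.45 (4.76 to 6.27), 2.65 (2.14 to 3.30) and 1.86 (1.76 to 1.97) in that order, all above the pooled 1.66. With the subsets held at their PBS shares of UMIs, the ratio was 2.25 for Oasl2, 2.78 for Oasl1 and 2.94 for the family, and all 6 members then stood at 2-fold or more. Oas2 had the largest ratio of the precursor-like cells, 6.19 and 48 CPM (7.75, 6.42 to 9.45). In dividing neutrophils (2 or more of Mki67, Top2a and Stmn1) Oas2 went from 29 to 513 UMIs, or 3.07 and 29.9 CPM (9.74, 6.70 to 14.7), while the family had 26.3 and 141 CPM (5.34, 4.68 to 6.11). In cells with no granule gene Oas1g and Oas3 had the largest ratios, 5.54 (3.67 to 8.62) and 3.98 (3.47 to 4.58).

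**Figure D3:**
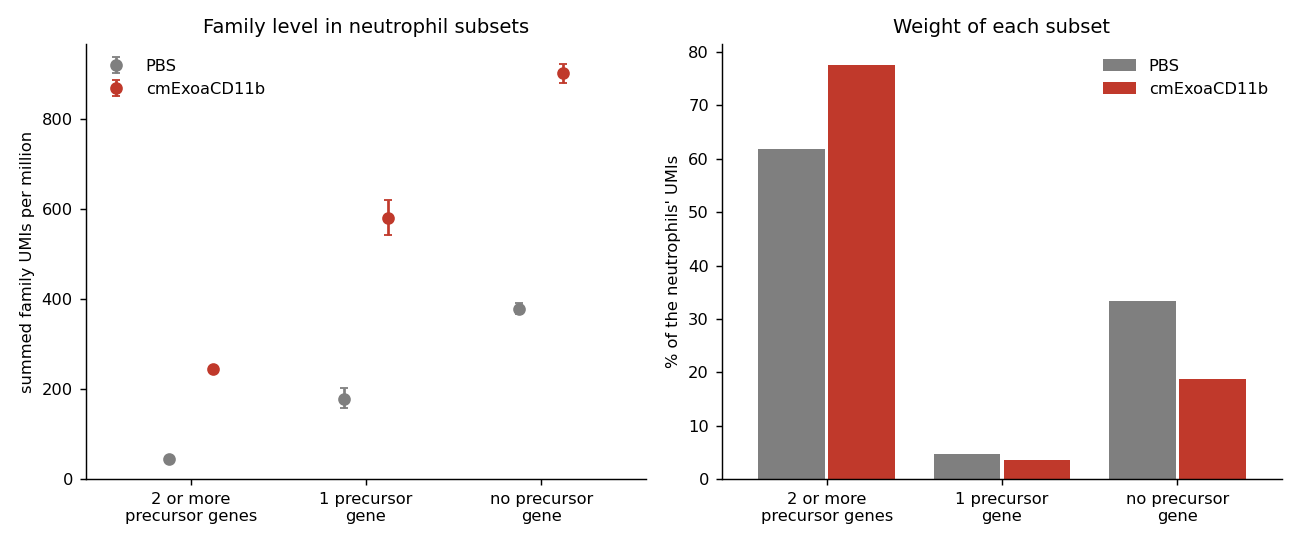
Left, summed family CPM in neutrophils with 2 or more, 1 or none of the precursor genes Ltf, Camp and Ngp above the free RNA level (PBS grey, cmExoaCD11b red, exact 95% Poisson intervals). Right, the percent of neutrophil UMIs that each subset held. The red point lies above the grey one in all 3 subsets, while the subset with the lowest CPM grew from 61.8% to 77.6% of UMIs.

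Clusters of the same cells, made with all variable genes and so not independent of the family, placed much of it in few neutrophils. Cluster 15 held 256 PBS and 238 cmExoaCD11b cells at 1771 and 1781 CPM (ratio 1.01, 0.936 to 1.08). Cluster 14 held 15 and 502 cells at 1790 and 1724 CPM (0.963, 0.769 to 1.22). Together they were 3.97% of cells but 19.2% of family UMIs in PBS, and 10.5% of cells and 20.6% of family UMIs in cmExoaCD11b. Neutrophils at such levels were therefore found in the PBS library too. Of the other neutrophil clusters with little Camp, clusters 1, 3 and 8 had ratios of 1.08, 1.01 and 0.918, whose intervals all include 1, while clusters 4 and 7 had 2.80 and 1.52. Clusters 5, 6, 13 and 16, rich in Camp, had ratios of 5.06, 6.91, 4.47 and 2.32. These are descriptions, since a cell's Oas level could itself place it in a cluster.

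Which gene led the family depended on the class. In neutrophils Oasl2 gave 48.6% of the family's UMIs in PBS and 34.6% in cmExoaCD11b. In the other leukocyte classes Oasl1 had the most UMIs, although in PBS DC, NK, B and plasma cells the interval of its ratio to Oasl2 included 1. It gave 45.6% and 48.5% in macrophages, 45.3% and 46.6% in monocytes, 48.8% and 40.7% in T cells and 47.7% and 42.2% in B cells. The UMI ratio of Oasl1 to Oasl2 was 0.509 (0.474 to 0.545) and 0.623 (0.596 to 0.650) in neutrophils but 1.51 (1.27 to 1.81) and 1.83 (1.69 to 1.99) in monocytes. It was 12.3 (5.41 to 34.7) in NK cells after cmExoaCD11b, from 74 and 6 UMIs. Oas2 and Oas3 gave larger shares in neutrophils than in monocytes. Oas3 stood at 0.412 UMIs per UMI of Oasl1 in PBS neutrophils and 0.711 in cmExoaCD11b, against 0.0897 and 0.147 in monocytes and 0.202 and 0.333 in T cells. These ratios within a class do not depend on the total used for scaling.

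**Figure D4:**
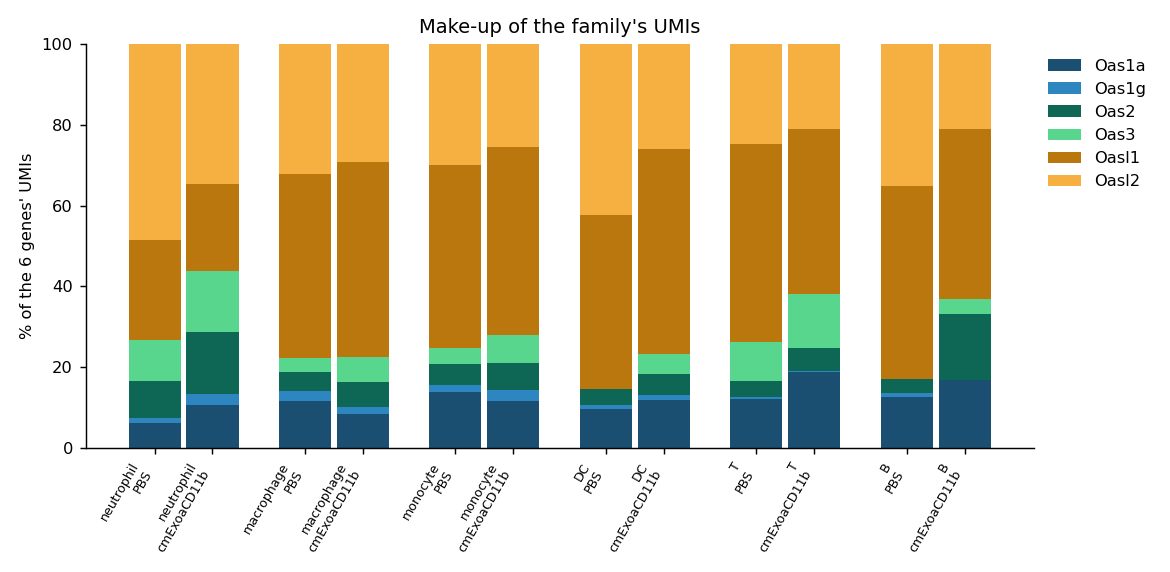
Percent of the 6 genes' summed UMIs (vertical axis) given by each gene, stacked, in 6 classes of each library. Oasl2 is the widest band in neutrophils (48.6% and 34.6%) and Oasl1 in macrophages, monocytes, T and B cells.

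DC take up and present antigen and are a known source of interferon. Their family level was 317 CPM in PBS (47 cells) and 554 CPM in cmExoaCD11b (115 cells), a ratio of 1.75 (1.49 to 2.05). In DC 5 of 6 members were at least 2-fold higher beside 5.24% of 5590 genes, yet 1 of the 5, Oas1g, rested on 2 and 11 UMIs (2.41, 0.527 to 22.4). Oas1g, Oas2 (8 and 41 UMIs) and Oas3 were under the 50 UMIs over both libraries asked of those genes. Oas3 had 0 UMIs in PBS and 39 in cmExoaCD11b (27.4 CPM). Set against a floor of 3 UMIs in the PBS class, its level was 5.70 times as high, and the exact lower limit of its ratio was 4.42. Oas1a had 30.4 and 65.3 CPM (2.15, 1.30 to 3.73), Oas2 12.8 and 28.8 CPM (2.25, 1.04 to 5.55) and Oasl1 136 and 279.9 CPM (2.06, 1.63 to 2.63). Oasl2 had 134 and 145 CPM (1.08, 0.831 to 1.40), and a difference was not detectable over DC as a whole. In DC with Xcr1 or Clec9a, genes of the type 1 DC that cross-present antigen, Oasl1 gave 33 of 40 and 278 of 418 family UMIs. In the other DC Oasl2 led, with 78 of 158 and 149 of 371. Oasl2 had 160 and 266 CPM in the latter (1.66, 1.25 to 2.21) and 43.3 and 65.9 CPM in the former (1.52, 0.658 to 4.32), both ratios above the pooled 1.08. Cells with a type 1 gene, lower in Oasl2, were 13 of 47 DC in PBS and 60 of 115 in cmExoaCD11b. The DC ratio was sensitive to processing: with each cell thinned to 1000 UMIs it was 1.15, and the number of members at least 2-fold higher was 3. Oas2 and Oasl1 then had ratios of 0.412 and 0.951. Thinning left few UMIs, since 70.2% of the 47 PBS DC held no member and no cell held more than 4 family UMIs. No direction can be read from these 2 ratios.

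In T cells the family had 83.1 and 237 CPM (2.86, 2.46 to 3.32), and 5 of 6 members had at least 10 UMIs over both libraries. Those 5 were all at least 2-fold higher, beside 2.76% of 9101 genes. Of these, Oas2 (8 and 61 UMIs) reached 10 UMIs only through the cmExoaCD11b library. Oas1a led with 10.1 and 44.4 CPM (4.38, 2.90 to 6.86), followed by Oas2 with 3.12 and 13.2 CPM (4.21, 2.01 to 10.2) and Oas3 with 8.20 and 32.1 CPM (3.92, 2.47 to 6.52). Oasl1 had 40.6 and 96.6 CPM (2.38, 1.92 to 2.97), and Oasl2 20.7 and 50.2 CPM (2.43, 1.80 to 3.34). Oas1g was nearly silent, with 1 and 4 UMIs. Neutrophil markers in T cells stood at 2436 and 11351 CPM, and without the cells holding 2 or more of them the family ratio was 2.97. Macrophage markers in T cells stood at 943 and 225 CPM, and their part in the result was not tested. T cells with Cd8a or Cd8b1 and no Cd4, the cytotoxic lineage, had 44.4 and 171 CPM (3.86, 2.83 to 5.37). T cells with Cd4 alone, the helper and regulatory lineage, had 133 and 274 CPM (2.06, 1.66 to 2.56), and the intervals of the 2 ratios did not overlap. Oasl1 made much of this contrast, at 12.6 and 57.6 CPM in the former (4.59, 2.58 to 8.88) and 83.8 and 120.5 CPM in the latter (1.44, 1.08 to 1.93), where the 73 PBS UMIs came from 19 of 145 cells.

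B cells, NK cells, plasma cells and epithelial cells gave fewer counts. In B cells the family had 51.3 and 114 CPM (2.22, 1.71 to 2.91). Of the 4 members with at least 10 UMIs, Oas1a and Oas2 were at least 2-fold higher, beside 1.49% of 6859 genes. Both were under the 50 UMIs asked of those genes, with 11 and 28 UMIs of Oas1a and 3 and 27 of Oas2. Oas2 reached 10 UMIs only through the cmExoaCD11b library, so its place in this count was partly set by the filter. Oasl1 (1.96, 1.32 to 2.95) and Oasl2 (1.33, 0.796 to 2.23) met that number and were under 2-fold. Of the 88 PBS UMIs of the family, 21 came from a single cell. Macrophage markers in B cells stood at 2008 and 235 CPM, with 9 and 7 of 9 detected, and their part in the result was not tested. Neutrophil markers stood at 6075 and 5175 CPM, and without the 10 PBS and 5 cmExoaCD11b cells holding 2 or more of them the ratio was 4.34. Over the alternatives it ranged from 1.31 with cells called by ranked UMIs to 5.19 with classes from clusters. Oas2 had 3 and 27 UMIs in B cells (10.6, 3.26 to 54.6).

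NK cells had 3 family UMIs in 35 PBS cells and 113 in 117 cmExoaCD11b cells (19.3 and 257 CPM, ratio 13.3, 4.44 to 65.5). Of the 113, 23 came from a single cell. Oasl1 made up 74 of the 113 and Oas1a 20. Of the 3 members with at least 10 UMIs, 3 were at least 2-fold higher, beside 14.6% of 2352 genes. They had 1 and 20 UMIs (Oas1a, 7.07, 1.13 to 293), 0 and 11 (Oas3, exact lower limit 0.887) and 2 and 74 (Oasl1, 13.1, 3.50 to 110). All 3 reached 10 UMIs through the cmExoaCD11b library, so this count was largely set by the filter. Oas1a and Oas3 were also under the 50 UMIs asked of those genes. Neutrophil markers in NK cells stood at 56938 and 3413 CPM, a difference whose part was not tested, and without the 2 cells of each library that held 2 or more of them the ratio was 10.8. Macrophage markers stood at 1949 and 118 CPM, with 6 and 7 of 9 detected, and their part was not tested either. Over the alternatives the ratio ran from 3.91 with classes from clusters, and 4.43 with doublets kept, to 25.0 with cells called by ranked UMIs. Plasma cells had 19.7 and 39.7 CPM (2.02, 1.26 to 3.41), and 22 of their 141 cmExoaCD11b family UMIs came from 1 cell. Of their 3 members with at least 10 UMIs, 1 was at least 2-fold higher, beside 10.6% of 6471 genes. This was Oasl1 (9 and 74 UMIs), which reached 10 UMIs only through the cmExoaCD11b library. Epithelial cells had 109 and 176 CPM (1.60, 1.27 to 2.02), and 1 of 6 members was at least 2-fold higher, beside 1.96% of 6369 genes. This was Oas2, with 11 and 13 UMIs (2.01, 0.832 to 4.96), under the 50 UMIs asked of those genes. The median log2 ratio over all background genes was 0.32 in NK cells, 0.34 in plasma cells and 0.12 in neutrophils and monocytes, and from -0.07 to 0.09 in the other classes and over all cells.

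Per cell, a member was seen more often after treatment in monocytes, macrophages, neutrophils and T cells. To make depths equal, cells with at least 1000 UMIs were thinned to that number. A UMI of any member was then found in 15.8% of PBS monocytes (11.9% to 20.4%) and 49.1% of cmExoaCD11b monocytes (43.7% to 54.6%), against 53.3% and 90.3% before thinning. The shares were 17.3% and 47.4% in macrophages, 19.8% and 37.1% in neutrophils and 7.35% and 17.5% in T cells. In DC and epithelial cells little differed, with no member in 70.2% and 66.7% of DC and in 80.0% and 79.1% of epithelial cells. No member was seen in 97.0% and 81.25% of NK cells and in 96.7% and 89.0% of B cells. No class is known to lack these genes, and the lowest shares were those of plasma cells, at 0 of 42 cells in PBS (exact upper limit 8.41%) and 5.07% of 138 cells. Before thinning, median depths were 10069 and 10674 UMIs in monocytes and 23338 and 24942 UMIs in plasma cells. At full depth no member was seen in 72.1% and 72.1% of plasma cells, and in 80.0% and 61.3% of T cells. For B cells it was 88.5% and 68.7%, and for NK cells 94.3% and 59.8%. In PBS the lowest place of plasma cells thus did not hold at full depth. After thinning, 3 or more members were seen in 0.323% and 5.85% of monocytes and in 0.557% and 3.17% of neutrophils. It was 1 macrophage in each library, 0 and 1 DC, 1 and 4 T cells, and 0 NK, B or plasma cells. At full depth 3 or more members were seen in 9.40% of PBS monocytes and 56.8% of cmExoaCD11b monocytes, and all 6 in 0 and 16 cells. In neutrophils the tenth of cells with the most family UMIs held 58.5% of them in PBS and 41% in cmExoaCD11b.

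The other genes of the 2-5A pathway analysed here are Pde12 and Akap7, phosphodiesterases that degrade 2-5A, and Abce1, a protein of ribosome recycling that also dampens the pathway. In neutrophils, macrophages, monocytes, DC and T cells 0 of these 3 were at least 2-fold higher, and Akap7 in monocytes was the only one of them at least 2-fold lower (18.5 and 8.68 CPM, 0.470, 0.320 to 0.682). In NK cells 1 of the 2 with at least 10 UMIs was at least 2-fold higher, beside 14.6% of all genes, and in plasma cells 1 of 3, beside 10.6%. In both it was Pde12 (3.18, 0.441 to 139, and 3.21, 1.30 to 10.3). In B and epithelial cells it was 0 of 3. Pde12 stood at 12.3 and 14.4 CPM in neutrophils (1.17, 1.02 to 1.33) and at 16.6 and 16.8 CPM in monocytes (1.01, 0.734 to 1.40). Abce1 stood at 12.8 and 11.9 CPM in neutrophils (0.926, 0.809 to 1.06) and at 43.5 and 51.5 CPM in monocytes (1.18, 0.980 to 1.43).

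Sensors of double-stranded RNA outside the family were also higher in monocytes, macrophages and neutrophils, and less uniformly in other classes. In monocytes and macrophages 7 of 7 were at least 2-fold higher, beside 4.16% and 4.4% of all genes. In neutrophils it was 6 of the 6 with at least 10 UMIs, at 2.14 to 2.86-fold, beside 2.88%. Ddx58, which encodes RIG-I, stood at 11 and 52.1 CPM in monocytes (4.74, 3.47 to 6.60). Zbp1, a Z-nucleic acid sensor of cell death, stood at 41.2 and 158 CPM (3.84, 3.26 to 4.55), and Eif2ak2, the kinase PKR, at 21.8 and 63.5 CPM (2.92, 2.32 to 3.71). In DC 3 of 7 passed 2-fold, beside 5.24%, and in T cells 3 of the 6 with at least 10 UMIs, beside 2.76%. In NK, B and plasma cells it was 4 of the 6 with at least 10 UMIs, beside 14.6%, 1.49% and 10.6%. In epithelial cells 2 of 7 passed, beside 1.96%.

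Genes of interferon signalling differed unequally between the libraries. The receptor genes Ifnar1 and Ifnar2 were not higher in monocytes (0.679, 0.576 to 0.8, and 0.962, 0.886 to 1.04) or neutrophils (0.931 and 1.05). Stat2 and Irf9, parts of the complex that binds the response element, were at 4.97 and 2.24 times the PBS level in monocytes and at 3.10 and 2.66 in neutrophils. Irf7, the factor whose mRNA Oasl1 acts on, had 27.6 and 129 CPM in monocytes (4.66, 3.83 to 5.71) and 35.2 and 285 CPM in DC (8.10, 5.27 to 13.1). Irf3, which STING activates through its phosphorylation, had a ratio of 1.20 (0.882 to 1.64) in monocytes. Irf1 was also on this list, and its own ratio is not given here. Of the 7 genes analysed here 4 were at least 2-fold higher in monocytes, 3 in macrophages, DC and neutrophils and 2 in T cells, beside 4.16%, 4.4%, 5.24%, 2.88% and 2.76% of all genes in that order of classes. Among the genes of cGAMP sensing, Tmem173 (STING) and Cgas were at 2.09 and 2.39 times the PBS level in monocytes and at 1.65 and 1.59 in neutrophils, whereas Tbk1 was at 0.911 and 0.976. STING transcripts were scarce in neutrophils, at 1.68 and 2.78 CPM beside 25.3 and 52.8 CPM in monocytes.

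**Figure D5:**
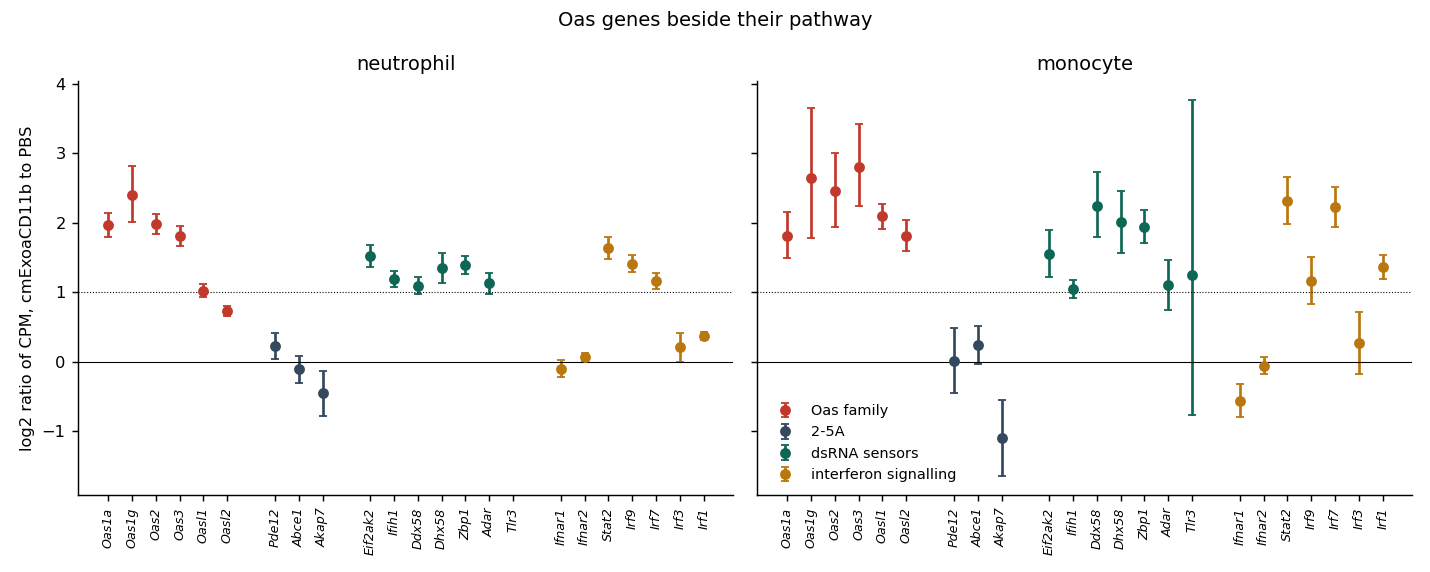
Log2 ratio of CPM between the cmExoaCD11b and PBS libraries (vertical axis) for the 6 Oas genes, 3 other 2-5A pathway genes, sensors of double-stranded RNA and interferon signalling genes in neutrophils and monocytes, with exact 95% intervals; the dotted line marks a 2-fold ratio. Pde12, Abce1 and Akap7 all lie under that line in both classes.

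Of the 6 further Oas1 paralogs, 5 were analysed here and only Oas1c reached 10 UMIs over both libraries in any class, at 2.77 and 7.67 CPM in neutrophils (2.77, 2.17 to 3.57) and 2.11 and 6.46 CPM in monocytes (3.07, 1.45 to 7.26). Across the 13 class-by-library sums with at least 100 cells, the members whose log2(CPM + 1) ran most alike were Oas1g and Oasl2 (Pearson's r = 0.946) and Oas1a and Oasl1 (0.931), while the close paralogs Oas1a and Oas1g gave 0.653. Among 11524 genes those most like the family sum were Anks1 (0.910), Ube2l6 (0.903), Chmp4b (0.888), Synj1, Slfn5, Acer3, Rnf213, 1700016P03Rik, Rsad2 and Tdrd7 (0.859). Ube2l6, the ISG15 conjugating enzyme, and Rsad2, the antiviral protein viperin, are interferon-induced genes. The 13 points come from 2 libraries and share their depth and free RNA, so these values are descriptions.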

How the data were processed

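Single cells of mouse pancreatic tumours were profiled with a droplet 3′ kit, in 1 library per treatment. The deposited counts were raw, unfiltered UMI counts per gene and barcode, written by Cell Ranger 7.1.0 per the file headers. The genome build was not given in the sources used here, so positions and sequences were taken by gene symbol from RefSeq and GENCODE tables for GRCm38, and all 6 gene identifiers matched. Library totals were 67143628 and 81288480 UMIs over all barcodes and 49957158 and 62343900 UMIs in kept cells.

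Barcodes were called as cells by ranked UMIs and then by a test against empty droplets (at least 500 UMIs, false discovery rate 0.01). Cells with under 200 genes or over 20% mitochondrial UMIs were dropped. Scrublet scores removed 421 and 453 likely doublets at 0.8% per 1000 cells, since its automatic cut found 0. Cells were gated by marker UMIs and also clustered (scanpy 1.11.5, Leiden, resolution 1). Counts were summed per class and divided by the class total (CPM). Intervals are exact: Poisson for CPM, Clopper-Pearson for shares, conditional binomial for ratios. They cover counting error only. A member was evaluated with at least 10 UMIs over both libraries, the background with at least 50. With 1 library per condition no test between conditions was run. The ratio and its interval were tried on simulated independent Poisson counts. These hold no clustering of UMIs in cells and no spread between pools, so they cannot show how the interval behaves under either. Named genes were the 6 members, fixed pathway lists and the genes most alike in profile by Pearson's r. Members and lists were chosen with earlier results of these data known. Some genes of these lists and an allele of the tumour line are not reported here.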

Additional observations from a re-analysis of the deposited data

How the results depend on the processing

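No paired analysis was possible because each condition had 1 library, and for the same reason no library could be left out. The family ratio stayed above 1 in all 8 groups of cells under every alternative run. When the call rested on ranked UMIs and not on the test against empty droplets it was 3.18 over all cells, 4.17 in neutrophils and 1.31 in B cells. With classes from Leiden clusters it was 2.16 in neutrophils, 2.81 in macrophages, 2.33 in DC, 3.91 in NK cells and 5.19 in B cells, where 4 members passed 2-fold in place of 2. With the mean of per-cell CPM it was 2.08 over all cells, 2.10 in neutrophils, 3.62 in macrophages and 2.91 in B cells, and 2 members passed in DC. Thinned to 1000 UMIs it was 2.02 over all cells, 2.03 in neutrophils, 3.62 in macrophages, 1.15 in DC and 3.38 in B cells, with 3 members past 2-fold in DC and 4 in B cells. In thinned DC Oas2 and Oasl1 were at 0.412 and 0.951, from too few UMIs to give a direction. Requiring at least 3 markers gave 2.43 in neutrophils and 4.66 in monocytes, and keeping doublets gave 4.43 in NK cells. Alternatives added after seeing the data were leaving out cells with 2 or more neutrophil markers (4.65 in monocytes and 4.34 in B cells, where 4 members passed) and weighting neutrophil subsets by their PBS shares (2.94). The cause of these shifts was not tested. A further 133 family values and counts lay within the main interval or within 1.5 times the main count. In NK, B and plasma cells the depth limits what can be said.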
